A study of Mus musculus with 21 samples.

Results

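The 8 adhesion and tissue retention genes Cd69, S1pr1, Selplg, Itga4, Itga6, Itgb1, Cd44 and Cd151 were followed through bulk RNA-seq of mouse blood stem and progenitor cells with and without retinoid X receptors. They were taken by name from the deposited table of TPM (the standard transcript abundance unit, a level scaled for gene length and for the library's total), in which each of the 8 is 1 of 28987 rows. All 8 passed the filter on low values in every comparison (at least 1 TPM in 3 or more libraries). The series holds 21 libraries in 7 groups of 3, sorted from lineage-negative cells of pooled animals, with 5 ng of RNA in each library. In batch 1, LT-HSC (the long-term repopulating blood stem cells) and MPP (multipotent progenitors, sorted as MPP3 and MPP4) came from Rxrabfl/fl mice without Cre, called floxed controls here, and from RXR knockouts of the genotype VaviCre+Rxrabfl/fl. Batch 2 holds LT-HSC alone. Its groups are Vav1Cre+WT (Cre controls), Vav1Cre+Rxrabfl/fl (RXR knockouts), and Vav1Cre+Rxrabfl/fl with 1 floxed allele that the titles name Mycl and the descriptions Myc. The controls of the batches therefore differ in floxed alleles and in Cre, so batch and control genotype cannot be told apart. Vav1-driven Cre acts through the blood system and not in stem cells alone. The labels give no ages.

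These genes take part in where a blood cell stays. Integrins are pairs of an alpha and a beta chain: Itga4 and Itga6 encode alpha chains that pair with the beta chain of Itgb1 and bind VCAM1 and fibronectin, or laminin, in the marrow. Selplg encodes PSGL-1, the ligand of P-selectin, and Cd44 encodes the hyaluronan receptor, which can also carry selectin ligands. S1pr1 encodes the sphingosine-1-phosphate receptor that draws cells towards blood and lymph, and the CD69 protein binds that receptor and takes it off the surface, which keeps lymphocytes in tissue. Cd151 encodes a tetraspanin, a membrane organiser that binds laminin-binding integrins. RXRA and RXRB are nuclear receptors that pair with partner receptors on DNA.

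The sorted populations carried their defining genes. Slamf1, a stem cell surface marker, lay at 9.32 to 39.3 TPM in the LT-HSC and at 0.18 to 0.77 TPM in the MPP libraries, while Cd48 reached at most 3.12 TPM in LT-HSC and at least 72.2 TPM in MPP. Rxra TPM overlapped between RXR knockouts and controls in each cell type and batch, over 1.27 to 7.46 TPM in all libraries, and the group with the additional floxed allele lay at 2.13 to 4.08 TPM, below the Cre controls at 4.14 to 4.85. Rxrb in MPP was 9.55 to 13.6 TPM in knockouts and 15.8 to 18.8 TPM in floxed controls, and in batch 2 LT-HSC 10.6 to 12.8 against 14.5 to 16.0 TPM, without overlap, and at most 8.88 TPM with the additional allele, but it overlapped in LT-HSC of batch 1. A whole-gene TPM does not test the deletion of an exon, so the knockouts are named by their labels. As animals were pooled, p-values measure the spread between these pools. LT-HSC floxed control 2 stood apart: a single identifier took 51.84% of its TPM scale, against 10.55% to 30.53% in the other libraries. Median-of-ratios scaling, which sets the typical gene equal between libraries, moved the median gene of the LT-HSC knockout comparison in batch 1 from 0.52 to -0.03 (log2), so the main changes below are given on the deposited and on this rescaled scale. Immunoglobulin light chain transcript Igkc was high in MPP (503 to 9453 TPM) and in batch 1 LT-HSC knockouts (346 to 854 TPM), against 0.95 to 204 TPM in LT-HSC floxed controls, and Cd79a, a defining B cell gene, was at most 7.08 TPM in any library. The heavy chain transcript Ighm lay at 532 to 2236 TPM in MPP floxed controls, 119 to 959 TPM in MPP knockouts and at most 21.8 TPM in any LT-HSC library. Summed neutrophil markers were 139 to 1393 TPM in the batch 1 LT-HSC knockouts and 39.9 to 66.6 TPM in their controls, and 284 to 860 against 49.1 to 219 TPM in MPP. Summed monocyte, macrophage and dendritic cell markers were 253 to 282 against 103 to 191 TPM in LT-HSC and 203 to 263 against 153 to 165 TPM in MPP, again higher in every knockout of batch 1. By single genes, 6 of 9 tested neutrophil and 5 of 8 tested monocyte, macrophage and dendritic cell markers were called higher in LT-HSC knockouts. After rescaling it was 0 and 1, where 45.2% and 4.68% of all genes were called on the 2 scales. In MPP knockouts 0 and 1 were called higher on each scale, beside 0.323% and 0.526% of all genes called on the 2 scales. LT-HSC markers summed to 1148 to 1442 TPM in the LT-HSC knockouts in which Itga6 and Cd151 were high, and to 594 to 979 TPM in their controls, with 12 of 13 called higher (4 after rescaling). Of 13 erythroid cell markers, 7 fell and 1 rose in those knockouts (8 and 0 after rescaling). The part of these cells in the results was not tested beyond the values given with each gene. In bulk samples, fewer cells of a type and less RNA per cell cannot be told apart.

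In LT-HSC the integrin chain Itga6 was the most abundant member in each of the 5 groups by mean TPM, from 80.2 in floxed controls to 187 in batch 1 knockouts, and Cd44 came next, from 57.7 to 87.9. In floxed controls of batch 1 those levels overlapped, and so did each further neighbour down to S1pr1: Itga4 at 37.3, Itgb1 at 31.4, Selplg at 22.2, Cd69 at 16.9, S1pr1 at 8.25 and, below all S1pr1 libraries, Cd151 at 3.45. MPP floxed controls had another order. Cd69 led at 225 TPM, with every library above those of Cd44 at 191, and Itga6 followed at 80.8, then Itga4 at 47.1 and Selplg at 44.3, which overlapped, Itgb1 at 31.3, and S1pr1 and Cd151 at 5.52 and 3.21, which overlapped. By mean TPM, Cd69 was thus the highest member in MPP floxed controls, the 6th in LT-HSC floxed controls, and the lowest in the other 4 LT-HSC groups (2.62 to 5.34 TPM). In Cre controls and in the group with the additional allele its libraries overlapped with those of Cd151, the next member up.

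**Figure D1:**
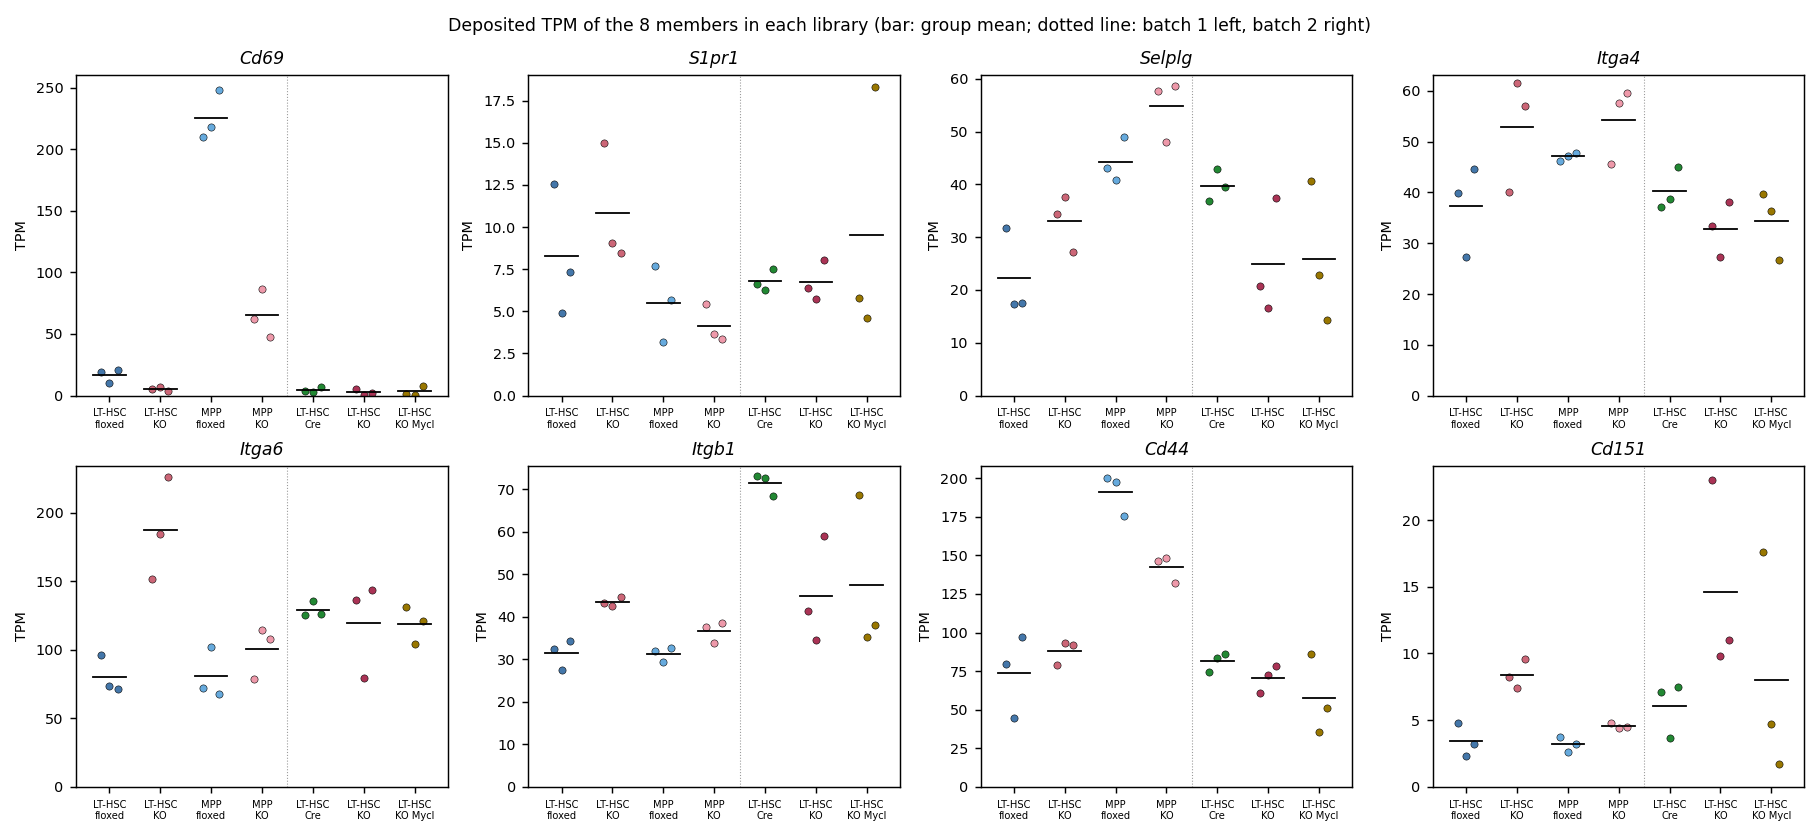
Deposited TPM (vertical axes, linear from 0, a scale of its own for each gene) of the 8 members in 21 libraries; points are libraries, bars the means of 3, colours the groups, and KO an RXR knockout. Cd69 stands at 209.7 to 248 TPM in MPP floxed controls, 47.9 to 86.6 in MPP knockouts and at most 20.6 in any LT-HSC library, while Cd151 has its highest library (23.0) among the batch 2 knockouts.

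Differences were tested with limma on log2(TPM + 1), with p adjusted over all genes tested, and those of low genes are understated on this scale. In LT-HSC of batch 1, 4 members rose and 1 fell in knockouts, in a comparison where 45.2% of all genes were called, 6614 higher and 86 lower. After rescaling none rose and 1 fell, against 4.68% of genes, 327 higher and 367 lower. In MPP, 1 member fell and none rose on either scale, where 0.323% of genes were called on the deposited and 0.526% on the rescaled scale. Between cell types, 3 members were higher in MPP than in LT-HSC floxed controls on each scale (21.2% and 23.9% of genes called). In knockouts 2 were higher and 3 lower in MPP on the deposited scale, and 3 higher and 2 lower after rescaling (19.5% and 22.9%). The difference between the knockout effects in MPP and LT-HSC was called for 0 of 8 members in limma on either scale (0.0809% and 0.0270% of genes called), with 3 and 0 at an unadjusted p under 0.05. Of all 14839 genes tested, 3891 and 1942 had such a p. These comparisons share libraries, and a count in one is not independent of the next.

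Batch 2 gave no call among the members in limma. For knockouts against Cre controls, 1 member on the deposited and 2 on the rescaled scale had an unadjusted p under 0.05 (0.0744% and 0.0595% of genes were called). For the group with the additional floxed allele against knockouts it was 0 members on both scales, with 0% of genes called on either scale (547 and 734 genes at an unadjusted p under 0.05), and against Cre controls 1 on each (0.104% and 0.0818%). For knockouts against Cre controls, 616 and 518 of all 13445 genes had such a p. For the additional allele against Cre controls the numbers were 1267 and 1273. Over both batches, with batch as a term, 1 member rose on the deposited scale (0.421% of genes) and 0 after rescaling (0% of genes, 2932 of them at an unadjusted p under 0.05), where 4 members had an unadjusted p under 0.05. The change in the knockout effect between batches was called for 0 members (1.27% of genes on the deposited and 0.124% on the rescaled scale), with 4 and 1 at an unadjusted p under 0.05. Of all 14492 genes tested, 5846 and 1423 had such a p.

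**Figure D2:**
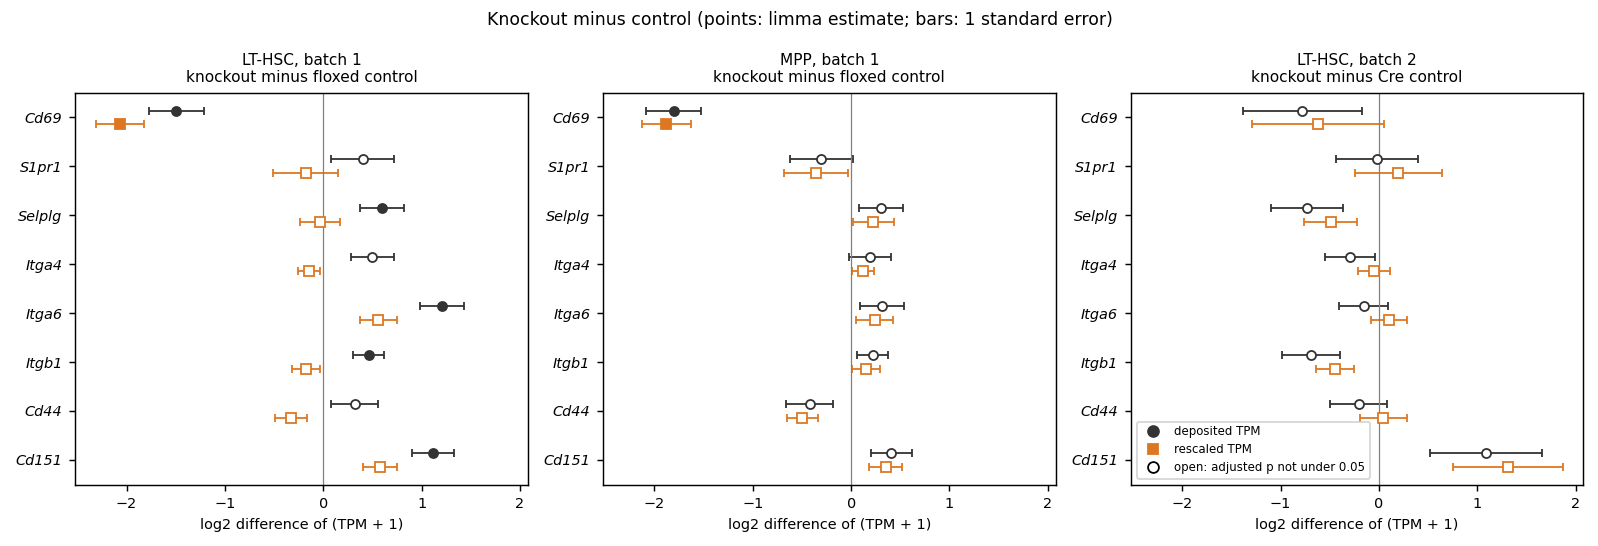
Knockout minus control for the 8 members as a log2 difference of (TPM + 1) (horizontal axis) in LT-HSC and MPP of batch 1 and LT-HSC of batch 2; points are limma estimates from 3 against 3 libraries, bars 1 standard error, filled points an adjusted p under 0.05. Cd69 is the filled point left of 0 on both scales in LT-HSC (-1.49 and -2.07) and MPP (-1.80 and -1.88), and no point is filled in batch 2.

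Cd69 (ENSMUSG00000030156, chr6:129267324-129275375 in GRCm38.p6), the early activation receptor that retains cells in tissue, was lower in the libraries labelled RXR knockout in both cell types of batch 1. In MPP floxed controls it was at 209.7, 218 and 248 TPM, and in MPP knockouts at 62.0, 86.6 and 47.9 TPM. All knockouts lay below all controls, with a log2 difference of -1.80 (SE 0.28, limma adjusted p = 0.00877), and of -1.88 (adjusted p = 0.00519) after rescaling. In LT-HSC the levels were 19.5, 10.6 and 20.6 TPM in floxed controls and 5.45, 7.25 and 3.32 TPM in knockouts, again without overlap. That difference was -1.49 (SE 0.28, adjusted p = 0.00456), and -2.07 (adjusted p = 0.00225) after rescaling. The effect in MPP minus that in LT-HSC was -0.31 (SE 0.40, adjusted p = 0.585), and 0.19 (adjusted p = 0.839) after rescaling. A difference between the cell types was thus not detected. The call in LT-HSC held under all 14 alternatives run, with log2 differences from -2.13 to -1.24. In MPP the call was lost without floxed control 2 (adjusted p = 0.0506), without knockout 3 (adjusted p = 0.0792) and with no filter on low genes (adjusted p = 0.0647), with differences of -1.83, -1.60 and -1.80.

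The cell-type difference of Cd69 was numerically larger than either knockout effect. MPP exceeded LT-HSC by 3.71 (SE 0.28, limma adjusted p = 3.78e-07) in floxed controls and by 3.40 (SE 0.28, adjusted p = 7.07e-07) in knockouts, on the log2 scale. Even the lowest MPP knockout, at 47.9 TPM, was above the highest LT-HSC library, at 20.6. Of 8 tested B cell markers, 4 were called higher in MPP in floxed controls and 0 passed limma for the knockout in MPP, where 3 had an unadjusted p under 0.05 (Ighm lower, Vpreb1 and Igll1 higher) and the median log2 difference was 0.32. Their sum, mainly Igkc, was 2186 to 11865 TPM in MPP floxed controls (5 of 11 markers at 1 TPM or more in every library), 754 to 6100 TPM in MPP knockouts, which overlapped, and 10.9 to 222 TPM in LT-HSC floxed controls. Leaving out the 2 MPP floxed controls of highest B cell marker sum gave a Cd69 knockout difference of -1.95 (adjusted p = 0.271, 1 control left, assumed to vary like the other groups) and a cell-type difference of 3.85 (adjusted p = 6.51e-05). Summed T and NK cell markers were 52.7 to 113 TPM in MPP floxed controls, 53.5 to 54.8 TPM in MPP knockouts and 8.91 to 28.1 TPM in LT-HSC floxed controls, with 6 of 7 tested called higher in MPP in floxed controls (5 after rescaling). Of all genes, 21.2% were called between cell types in floxed controls, and 23.9% after rescaling. The summed neutrophil and monocyte markers given above were higher in every MPP knockout, where Cd69 was lower. Of the single markers tested, 0 of 9 and 1 of 8 were called higher there in limma, on either scale. In the MPP knockout comparison 0.323% of all genes were called, and 0.526% after rescaling. The part of these cells in the Cd69 differences was not tested.

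In batch 2 Cd69 was low in every group. Cre controls had 3.58, 3.04 and 7.03 TPM, knockouts 5.01, 0.44 and 2.40 TPM, and the group with the additional floxed allele 1.36, 0.86 and 7.73 TPM, all overlapping. The Cd69 difference between knockouts and Cre controls was -0.78 (SE 0.60, limma adjusted p = 0.705) on the deposited scale. That is about as far from 0 as from the -1.49 of batch 1. After rescaling the difference was -0.62 (SE 0.67, adjusted p = 0.93), beside -2.07 in batch 1. The LT-HSC controls themselves differed: the lowest floxed control, at 10.6 TPM, was above the highest Cre control, at 7.03, with batch and genotype inseparable there. Over both batches the Cd69 difference was -1.14 (SE 0.31, adjusted p = 0.0739), and -1.33 (adjusted p = 0.0949) after rescaling. The change of the Cd69 effect between batches was 0.72 (SE 0.60, adjusted p = 0.333). After rescaling it was 1.38 (SE 0.61, unadjusted p = 0.0416, adjusted p = 0.484).

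S1pr1 (ENSMUSG00000045092, chr3:115710433-115715055), the receptor whose surface level CD69 lowers, stayed between 3.19 and 18.3 TPM in all 21 libraries. LT-HSC floxed controls had 12.5, 4.89 and 7.33 TPM and knockouts 15.0, 9.04 and 8.48 TPM, which overlapped. MPP floxed controls had 7.69, 3.19 and 5.67 TPM and MPP knockouts 5.45, 3.63 and 3.33 TPM, which overlapped too. The knockout differences of S1pr1 were 0.40 (SE 0.32, limma adjusted p = 0.291) in LT-HSC and -0.30 (SE 0.32, adjusted p = 1) in MPP. After rescaling they were -0.18 (adjusted p = 0.751) and -0.36 (adjusted p = 0.901), so the sign in LT-HSC depended on the scale. Between cell types it was lower in MPP than in LT-HSC among knockouts, by a log2 difference of -1.19 (SE 0.32, adjusted p = 0.0163) with no overlap, but -0.93 (adjusted p = 0.059) after rescaling, and without LT-HSC knockout 1 -0.95 (adjusted p = 0.0599), without MPP knockout 2 -1.12 (adjusted p = 0.0522) and without MPP knockout 3 -1.07 (adjusted p = 0.0623). Among floxed controls S1pr1 differed by -0.48 (SE 0.32, adjusted p = 0.289), and by the same amount with an adjusted p of 0.0305 when libraries with the same animal label were paired (replicate block).

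The ratio of Cd69 to S1pr1 within a library, each with 1 TPM added, depends little on the scaling between libraries. Its log2 value was 0.60, 0.98 and 1.37 in LT-HSC floxed controls, -1.31, -0.28 and -1.13 in LT-HSC knockouts, 4.60, 5.71 and 5.22 in MPP floxed controls and 3.29, 4.24 and 3.50 in MPP knockouts. None of these 4 groups overlapped with another: Cd69 transcripts outnumbered those of S1pr1 per length in the LT-HSC floxed controls and in every MPP library, and S1pr1 outnumbered Cd69 in the LT-HSC knockouts. Mean differences were -1.89 and -1.50 for the knockout in LT-HSC and MPP, and 4.19 and 4.58 for MPP against LT-HSC in floxed controls and knockouts. Each had p = 0.1 in a two-sided exact permutation test, the smallest p that 3 against 3 allows, and an adjusted p of 0.2 over 14 such ratio tests. In batch 2 S1pr1 was above Cd69 in all 9 libraries, with a mean log2 ratio of -0.56 in Cre controls, -1.31 in knockouts (difference -0.76, exact permutation p = 0.3) and -1.42 in the group with the additional allele.

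**Figure D3:**
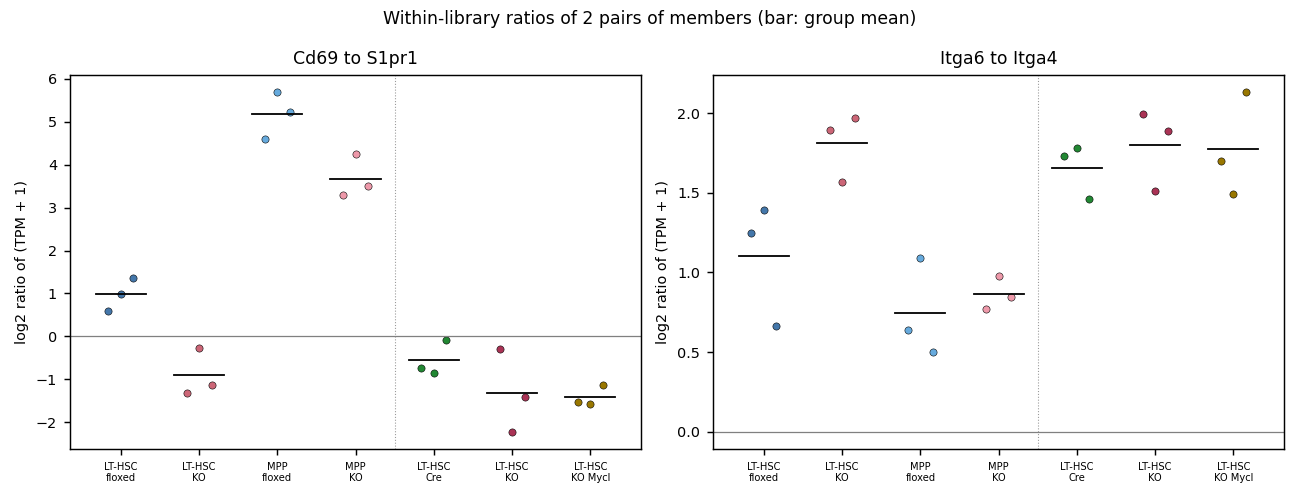
Log2 ratio of (TPM + 1) (vertical axes) of Cd69 to S1pr1 and of Itga6 to Itga4 in each library by group; points are libraries, bars means of 3. The Cd69 ratio separates the 4 groups of batch 1, from a mean of -0.91 in LT-HSC knockouts to 5.18 in MPP floxed controls, and the Itga6 ratio is highest in LT-HSC knockouts of batch 1 (mean 1.81) and in the LT-HSC groups of batch 2.

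Of 18 further genes of sphingosine phosphate signalling and egress, 17 were tested in batch 1. In LT-HSC knockouts 5 rose and 1 fell on the deposited scale and 0 rose and 2 fell after rescaling, with a median log2 difference of 0.37 and -0.15, beside 0.52 and -0.03 over all genes. Of all genes, 45.2% and 4.68% were called in that comparison on the 2 scales. Sphk1, the kinase that makes sphingosine-1-phosphate, fell on both scales, with log2 differences of -1.69 (SE 0.56, limma adjusted p = 0.0272) and -2.24 (adjusted p = 0.0423). Its controls spread from 4.86 and 9.11 to 51.5 TPM and overlapped with the knockouts at 2.56, 5.83 and 2.80 TPM. Between cell types Gna13, a G protein subunit downstream of S1P receptors, rose from 24.2 to 56.9 TPM in MPP floxed controls, a log2 difference of 1.23 (adjusted p = 0.000532). S1pr3, another receptor of the family, rose in MPP from 0.29 to 1.56 TPM in floxed controls, while Mfsd2b, an S1P exporter, fell from 20.1 to 3.97 TPM and Plpp3, which degrades S1P, from 1.11 to 0.12 TPM. Those changes passed on both scales in floxed controls.

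Selplg (ENSMUSG00000048163, chr5:113817798-113832528), the P-selectin ligand, was higher in MPP than in LT-HSC. MPP floxed controls had 43.2, 40.8 and 49.0 TPM against 31.7, 17.3 and 17.6 TPM in LT-HSC, and MPP knockouts 57.7, 48.1 and 58.6 TPM against 34.4, 37.5 and 27.2 TPM. Neither pair overlapped. The Selplg differences were 1.02 (SE 0.22, limma adjusted p = 0.00494) and 0.72 (SE 0.22, adjusted p = 0.034), and 0.73 (adjusted p = 0.0217) and 0.99 (adjusted p = 0.00392) after rescaling. With the 2 MPP floxed controls of highest B cell marker sum left out, the first was 1.17 (adjusted p = 0.0806). Among knockouts the call was lost without LT-HSC knockout 3 (0.59, adjusted p = 0.166), MPP knockout 1 (0.68, adjusted p = 0.113) or MPP knockout 3 (0.67, adjusted p = 0.106). The knockout effect in LT-HSC was 0.60 (SE 0.22, adjusted p = 0.042) on the deposited and -0.03 (adjusted p = 0.93) on the rescaled scale, with overlapping libraries, and the call was also lost without floxed control 2 or 3 or any 1 knockout (adjusted p = 0.0596 to 0.152). Leaving out the identifier of highest TPM before scaling gave 0.26 (adjusted p = 0.34). In batch 2 Selplg was at 36.9, 42.9 and 39.5 TPM in Cre controls and at 20.8, 16.6 and 37.5 TPM in knockouts, a difference of -0.73 (SE 0.37, adjusted p = 0.705).

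P-selectin itself, encoded by Selp and known from platelets, megakaryocytes and endothelium, rose with the knockout in both cell types of batch 1. It was at 31.0, 24.1 and 13.5 TPM in LT-HSC floxed controls and at 79.6, 76.1 and 96.5 TPM in knockouts, and in MPP at 17.9, 16.0 and 14.9 against 45.5, 49.1 and 62.9 TPM. Neither pair overlapped. The Selp differences were 1.90 (SE 0.25, limma adjusted p = 0.00135) and 1.62 (SE 0.25, adjusted p = 0.00758), and 1.26 (adjusted p = 0.0281) and 1.55 (adjusted p = 0.0195) after rescaling. In batch 2 Cre controls had 36.4, 34.1 and 13.6 TPM of Selp and knockouts 21.5, 15.9 and 41.1 TPM, which overlapped. Summed megakaryocyte and platelet markers were 129 to 406 TPM in LT-HSC floxed controls and 394 to 535 TPM in knockouts, and 32.1 to 47.4 against 62.9 to 68.2 TPM in MPP. Their part in the rise of Selp was not tested. Selp was the sole call among the 111 tested genes of the 6 pathway lists in the MPP knockout comparison. There 0.323% of all genes were called, and 0.526% after rescaling.

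All 18 genes of the list of selectins and selectin ligand synthesis were tested in batch 1. In LT-HSC knockouts 10 rose and 0 fell on the deposited scale and 1 rose and 1 fell after rescaling (medians 0.52 and 0.03), beside 45.2% and 4.68% of all genes called. Between cell types in floxed controls 4 rose and 2 fell in MPP, and 3 rose and 8 fell after rescaling (medians -0.02 and -0.32), beside 21.2% and 23.9% of all genes called. Fut7, a fucosyltransferase that completes selectin ligands, rose in MPP from 1.75 to 9.66 TPM, and Podxl fell from 4.09 to 0.93 TPM.

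Itga6 (ENSMUSG00000027111, chr2:71786886-71858427), the laminin-binding alpha chain, was at 95.8, 73.3 and 71.5 TPM in LT-HSC floxed controls and at 152, 184 and 226 TPM in knockouts, without overlap. The difference was 1.21 (SE 0.23, limma adjusted p = 0.00436). After rescaling it was 0.56 (SE 0.19, adjusted p = 0.0903), and with quantile scaling 0.81 (adjusted p = 0.0648), so the Itga6 call was lost under these 2 scalings. It was kept in 12 of the 14 alternatives run, among them leaving out the identifier of highest TPM. In MPP Itga6 was at 72.4, 101.8 and 68.0 TPM in floxed controls and 78.6, 114.6 and 107.9 TPM in knockouts, a difference of 0.31 (SE 0.23, adjusted p = 1). The test of the difference between cell types gave -0.89 (SE 0.32, adjusted p = 0.127), and -0.32 (adjusted p = 0.623) after rescaling. The median over all genes was -0.45 and 0.04 on the 2 scales. In knockouts Itga6 was lower in MPP than in LT-HSC on both scales, by -0.89 (SE 0.23, adjusted p = 0.0106) and -0.62 (adjusted p = 0.0314), with no overlap, but not without LT-HSC knockout 3 (-0.75, adjusted p = 0.0683) or MPP knockout 1 (-0.73, adjusted p = 0.0693). In floxed controls the cell types overlapped, with an Itga6 difference of -0.00043 (SE 0.23, adjusted p = 0.999). Batch 2 had 125.5 to 136 TPM in Cre controls and 136, 79.5 and 143.6 TPM in knockouts.

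Itga4 (ENSMUSG00000027009, chr2:79255426-79333114), the alpha chain of VLA-4, was the steadiest of the higher members, between 26.8 and 61.5 TPM over all 21 libraries. It had 39.8, 27.3 and 44.7 TPM in LT-HSC floxed controls and 40.2, 61.5 and 57.1 TPM in knockouts, which overlapped, with a difference of 0.50 (SE 0.21, limma adjusted p = 0.0668) and of -0.14 (adjusted p = 0.425) after rescaling. The Itga4 difference in MPP was 0.19 (SE 0.21, adjusted p = 1). In the ratio of Itga6 to Itga4, LT-HSC knockouts lay above floxed controls: 1.89, 1.57 and 1.97 against 1.25, 1.39 and 0.67 on the log2 scale, a mean difference of 0.71 (exact permutation p = 0.1, adjusted p = 0.2). In MPP that ratio overlapped between knockouts and controls (difference 0.12, exact permutation p = 0.5).

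Itgb1 (ENSMUSG00000025809, chr8:128685654-128733579), the shared beta chain, was at 32.5, 27.5 and 34.2 TPM in LT-HSC floxed controls and at 43.1, 42.7 and 44.7 TPM in knockouts. The difference was 0.46 (SE 0.16, limma adjusted p = 0.0304) on the deposited scale and -0.18 (adjusted p = 0.437) after rescaling, so the direction of Itgb1 depended on the scale. Without LT-HSC knockout 2 or 3 it was 0.48 (adjusted p = 0.0803) and 0.44 (adjusted p = 0.101), and without the identifier of highest TPM 0.12 (adjusted p = 0.56). MPP floxed controls had 31.9, 29.3 and 32.7 TPM and knockouts 37.5, 33.7 and 38.7 TPM, a difference of 0.22 (SE 0.16, adjusted p = 1). Batch 2 controls were higher, at 73.2, 72.6 and 68.3 TPM of Itgb1, and batch 2 knockouts lay below them at 41.3, 34.6 and 58.9 TPM. That difference of -0.69 (SE 0.29, adjusted p = 0.705) did not pass.

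Of 23 other integrin subunits, 14 were tested in batch 1, where 45.2% of all genes were called in LT-HSC knockouts and 4.68% after rescaling. In those knockouts 7 subunits rose and 0 fell, and 1 rose after rescaling (medians 0.45 and -0.05). That 1 was Itgam, the alpha chain of the myeloid receptor Mac-1, which went from 1.79 to 7.63 TPM, beside the neutrophil marker sums given above. Between cell types in floxed controls 6 subunits were higher and 3 lower in MPP (5 and 3 after rescaling). Itgal, the alpha chain of LFA-1, rose from 1.51 to 23.6 TPM and Itgb3, the beta chain of the platelet fibrinogen receptor, fell from 10.5 to 1.62 TPM. The same comparison in knockouts gave Itgb3 at 28.3 TPM in LT-HSC and 3.06 TPM in MPP, and Itga2b, its partner chain, at 85.0 and 25.7 TPM. Itgb3 and Itga2b are both among the 10 megakaryocyte and platelet markers. The marker sum, which includes them, was 394 to 535 and 62.9 to 68.2 TPM. Of 25 adaptors of integrin activation and focal adhesion, 20 were tested. In LT-HSC knockouts 10 rose on the deposited scale and 0 on the rescaled one (medians 0.51 and -0.13), beside 45.2% and 4.68% of all genes called. Between cell types in floxed controls 6 adaptors were higher and 2 lower in MPP (5 and 4 after rescaling), beside 21.2% and 23.9% of all genes called. Ptk2, the focal adhesion kinase, fell from 2.86 to 0.69 TPM in MPP, a log2 difference of -1.19 (SE 0.17, limma adjusted p = 0.000169). Parvg, an adaptor of the integrin-linked kinase complex, rose from 24.8 to 59.6 TPM, and Rasgrp2, which activates RAP1 ahead of integrins, from 40.4 to 86.1 TPM.

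Cd44 (ENSMUSG00000005087, chr2:102811141-102901669), the hyaluronan receptor, was also higher in MPP than in LT-HSC. MPP floxed controls had 199.8, 197.9 and 175.8 TPM and LT-HSC floxed controls 79.9, 44.4 and 97.1 TPM, without overlap. The difference was 1.43 (SE 0.24, limma adjusted p = 0.000598), and 1.13 (adjusted p = 0.000243) after rescaling. With the 2 MPP floxed controls of highest B cell marker sum left out it was 1.31 (adjusted p = 0.0615). In knockouts MPP had 147, 149 and 132 TPM and LT-HSC 78.9, 93.1 and 91.8 TPM, also without overlap, at 0.69 (SE 0.24, adjusted p = 0.0527) on the deposited and 0.96 (adjusted p = 0.000867) on the rescaled scale, and at 0.69 with an adjusted p of 0.049 with the animal label as a replicate block. All MPP knockouts were below all MPP controls, but that Cd44 difference of -0.42 (SE 0.24, adjusted p = 0.904) did not pass, nor did -0.50 (adjusted p = 0.246) after rescaling. In LT-HSC of batch 1 the knockout difference was 0.32 on the deposited and -0.33 on the rescaled scale, neither of which passed. Batch 2 ranged from 35.7 to 86.1 TPM with overlapping groups.

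**Figure D4:**
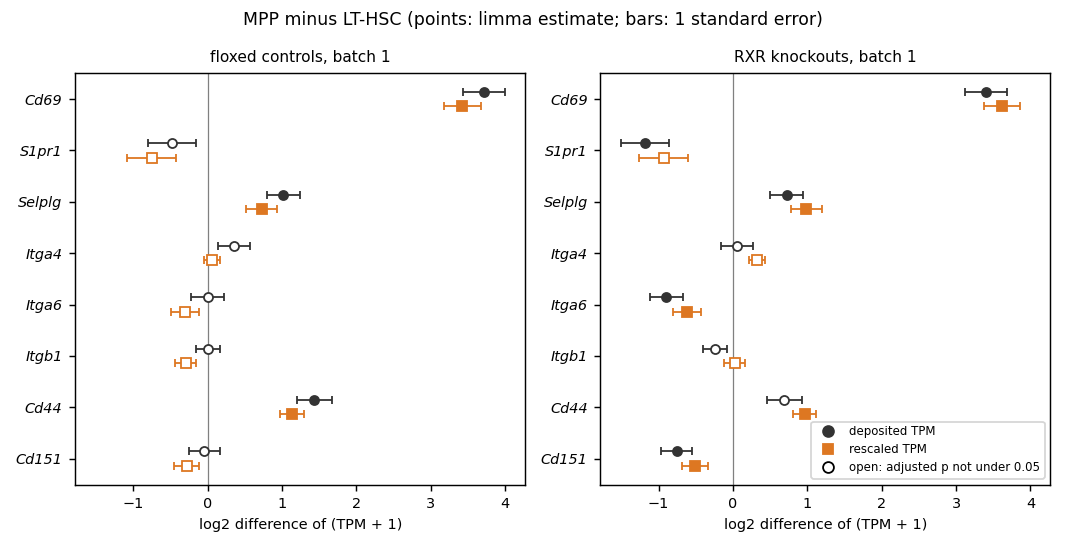
MPP minus LT-HSC for the 8 members as a log2 difference of (TPM + 1) (horizontal axis) in floxed controls and in RXR knockouts of batch 1; points are limma estimates from 3 against 3 libraries, bars 1 standard error, filled points an adjusted p under 0.05. Cd69 (3.71 and 3.40 on the deposited scale) lies furthest to the right, Cd44 and Selplg follow, and in the knockouts S1pr1 (-1.19, on the deposited scale alone), Itga6 and Cd151 are filled left of 0.

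Cd151 (ENSMUSG00000025510, chr7:141467362-141471481), the tetraspanin partner of laminin-binding integrins, was the rarest member in floxed controls. LT-HSC floxed controls had 4.81, 2.30 and 3.23 TPM and knockouts 8.26, 7.42 and 9.55 TPM, without overlap. The difference was 1.11 (SE 0.21, limma adjusted p = 0.00442), and 0.58 (SE 0.17, adjusted p = 0.0667) after rescaling. In MPP it was at 3.77, 2.63 and 3.23 TPM in floxed controls and 4.77, 4.40 and 4.47 TPM in knockouts, all higher, at 0.41 (SE 0.21, adjusted p = 0.855). In batch 2 Cre controls had 7.10, 3.69 and 7.50 TPM of Cd151 and knockouts 23.0, 9.79 and 11 TPM, again all higher, at 1.09 (SE 0.57, adjusted p = 0.705). The group with the additional floxed allele spread from 1.73 to 17.6 TPM. Over both batches the knockout difference of 1.10 (SE 0.24, adjusted p = 0.0498) just passed. It was 0.96 (adjusted p = 0.0909) after rescaling, and 13 of 19 alternatives ended the call, among them leaving out any of LT-HSC floxed controls 1 to 3, Cre controls 4 or 5, or knockouts 2, 3 or 4 (adjusted p = 0.0608 to 0.144). Knockout MPP had less Cd151 than knockout LT-HSC, by -0.76 (SE 0.21, adjusted p = 0.0182) and -0.51 (adjusted p = 0.048) after rescaling, a call lost without LT-HSC knockout 3 (-0.67, adjusted p = 0.09) or MPP knockout 2 or 3 (adjusted p = 0.0576 and 0.0562).

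The RefSeq table places 2 start sites in Cd151, and the deposited splicing events hold a junction for each, so the 250 bases before both starts are shown (GRCm38.p6, plus strand). The upstream window is chr7:141467112-141467361 and the downstream window, whose start site lies 1427 bases further on, is chr7:141468539-141468788. Capitals mark AGGTCA, the core hexamer of nuclear receptor sites (read on either strand, here as TGACCT), and GGGCGG, the core of SP family sites.
Cd151 upstream start: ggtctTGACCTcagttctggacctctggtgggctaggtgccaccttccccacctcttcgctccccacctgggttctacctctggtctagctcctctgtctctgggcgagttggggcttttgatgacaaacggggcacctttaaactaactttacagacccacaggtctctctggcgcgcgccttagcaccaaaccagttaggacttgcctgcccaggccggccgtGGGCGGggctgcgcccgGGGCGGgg
Cd151 downstream start: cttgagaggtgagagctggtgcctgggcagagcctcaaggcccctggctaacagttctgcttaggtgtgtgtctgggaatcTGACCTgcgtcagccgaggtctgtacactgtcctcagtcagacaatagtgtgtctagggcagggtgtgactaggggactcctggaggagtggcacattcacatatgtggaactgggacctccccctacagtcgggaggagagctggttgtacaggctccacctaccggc
Each window holds AGGTCA once, as do 14% of 32851 such windows of all genes. GGGCGG occurs 2 times before the upstream start and 0 times before the downstream start, and 32.7% of all windows hold it. Neither TATAAA (12.4% of all windows) nor CCAAT (33.8%) was found, and no match overlapped another. The upstream window has 62.4% G and C with 12 CG dinucleotides, the downstream window 58.0% with 4, beside medians of 52.4% and 6. These matches describe letters and are not evidence of binding. Promoter windows matched 4 of the 8 members by symbol, Cd151, Cd44, Itga4 and Itgb1.

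Use of the downstream Cd151 start was read from the deposited percent spliced in (PSI, a fraction from 0 to 1) of the junction from exon 3 to exon 4 against that from exon 2 to exon 4, an event typed as an alternative promoter. Its donor lies at base 141468896 of chromosome 7, which is 107 bases past the downstream start shown above. The PSI was 0.64, 0.125 and 0.222 in the batch 2 knockouts, 0.0476, 0.0204 and 0.14 in Cre controls and 0.0459, 0 and 0 in the group with the additional allele. In batch 1 it was at most 0.0811 in any library of either cell type. The library at 0.64 was also the one with the highest Cd151 TPM (23.0), and batch 2 knockouts overlapped with Cre controls. The Cd151 difference between knockouts and Cre controls was 0.26 (SE 0.12, unadjusted p = 0.0629, limma adjusted p = 1), and that between the group with the additional allele and knockouts -0.31 (SE 0.12, unadjusted p = 0.0313, limma adjusted p = 0.697).

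Among 20 other tetraspanins, 13 rose and 0 fell in LT-HSC knockouts of batch 1, and 1 rose and 1 fell after rescaling (medians 0.67 and 0.14). Of all genes, 45.2% and 4.68% were called in that comparison. Cd53, a tetraspanin of white blood cells, rose on both scales from 5.82 ± 2.45 to 22.7 ± 9.19 TPM (SD, n = 3 each), by a log2 difference of 1.78 (SE 0.30, limma adjusted p = 0.00346), in the libraries with the higher neutrophil marker sums. Between cell types in floxed controls 6 tetraspanins were higher and 2 lower in MPP, and 4 and 6 after rescaling, beside 21.2% and 23.9% of all genes called. MPP had more Cd53 (95.0 TPM), Cd37 (83.5 against 22.9 TPM) and Tspan2 (8.82 against 1.31 TPM), and less Tspan33 (2.39 against 10.9 TPM), named after its value was seen. Of 26 other adhesion receptors of marrow cells, 22 were tested. In LT-HSC knockouts 12 rose and 0 fell, and 3 rose and 2 fell after rescaling (medians 0.60 and 0.01). The 3 were Icam2, a ligand of LFA-1, which went from 35.5 to 100.2 TPM, Jam2, a junctional molecule, from 10.4 to 26.8 TPM, and Epcam from 0.61 to 2.96 TPM. Between cell types in floxed controls 4 were higher and 5 lower in MPP (3 and 8 after rescaling). Cd34 rose from 29.7 to 164 TPM in MPP floxed controls, and Esam and Adgrg1, surface genes of stem cells, fell from 22.5 to 4.80 and from 146 to 47.6 TPM. In knockouts 1 of these 22 receptors was higher in MPP and 15 lower, and 5 and 14 after rescaling, beside 19.5% and 22.9% of all genes called.

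The effect of the knockout in batch 2 minus that in batch 1 was -1.36 (SE 0.36, limma adjusted p = 0.0538) for Itga6, -1.15 (SE 0.32, adjusted p = 0.0564) for Itgb1 and -1.33 (SE 0.41, adjusted p = 0.0637) for Selplg on the deposited scale. All 3 passed without LT-HSC floxed control 1 (adjusted p = 0.0276, 0.0388 and 0.0281) or without knockout 6 (0.0115, 0.00862 and 0.00979), and Itga6 also without knockout 1 (-1.50, adjusted p = 0.0461). After rescaling the differences were -0.52, -0.33 and -0.51 (adjusted p = 0.521, 0.608 and 0.608), and the median over all genes was -0.73 on the deposited scale. In the group with the additional allele, Itgb1 had 68.7, 35.3 and 38.1 TPM and Cd44 86.1, 35.7 and 51.4 TPM, the first library of each standing high. Without that library both were lower than in Cre controls, by -0.94 (adjusted p = 0.0461) and -0.91 (adjusted p = 0.043), while with it neither passed (-0.65 and -0.58, adjusted p = 0.503 for each).

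No gene of the 6 lists was called in limma between any groups of batch 2, where 105 of the 130 listed genes were tested. At an unadjusted p under 0.05 there were 6 for knockouts against Cre controls, 1 for the additional allele against knockouts and 14 against Cre controls, and 4, 5 and 16 after rescaling. Of all 13445 genes tested, 616, 547 and 1267 had such a p, and 518, 734 and 1273 after rescaling. Calls were made for 0.0744%, 0% and 0.104% of all genes, and for 0.0595%, 0% and 0.0818% after rescaling. Over both batches 0 of 106 listed genes were called, with 16 and 29 at an unadjusted p under 0.05. Of all 14492 genes tested there, 0.421% and 0% were called, and 2193 and 2932 had such a p.

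The deposited splicing table held 66 events of the members, of which 55 were typed as intron retention and 17 belonged to Cd44 and 13 each to Cd69 and Itga4. Each read-junction PSI came without read depth, so its counting error is unknown. A call required an adjusted p under 0.05 over all events and a difference of at least 0.1. In batch 1, 0 of the 52 events with values in all 12 libraries was called in limma for knockout in LT-HSC (7 at an unadjusted p under 0.05, 0.127% of all events called) or MPP (4, 0.127%), their difference (1, 0.0458%), or the cell types in floxed controls (6, 0.402%) and knockouts (2, 0.244%). In batch 2 it was 0 of 35 for knockouts against Cre controls (0 at an unadjusted p under 0.05, 0.0316% of events called), the additional allele against knockouts (3, 0.0158%) and against Cre controls (1, 0.0198%). Of all 39312 events of batch 1, 4346, 3449, 2889, 4340 and 2961 had an unadjusted p under 0.05, in the order given. Of all 25312 events of batch 2 the numbers were 734, 1506 and 1063.

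Cd44 is known for a block of variable exons between its constant parts, and the junction from exon 5 to exon 16 skips them. Reads of intron 9 running into exon 10, set against that skipping junction, had a PSI of 0.36, 0.412 and 0.521 in MPP floxed controls and 0.291, 0.206 and 0.17 in MPP knockouts. These Cd44 groups did not overlap, and the difference was -0.21 (SE 0.053, unadjusted p = 0.00264, limma adjusted p = 0.222). LT-HSC floxed controls had 0.243, 0.209 and 0.236, below all MPP floxed controls (difference 0.20, adjusted p = 0.177), and LT-HSC knockouts 0.227, 0.344 and 0.206. The knockout difference in MPP minus that in LT-HSC was -0.24 (SE 0.076, unadjusted p = 0.00957, adjusted p = 0.512). In batch 2 the same event ranged from 0 to 0.174. Inclusion of the last variable exon, by the junction from exon 15 to exon 16, ranged from 0 to 0.286 over all libraries.

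The Cd69 event at the start of intron 2 had a value in 15 of 21 libraries, and in all LT-HSC libraries with a value but 1 (0.327, floxed control 2) it was 0. In MPP its PSI was 0.198, 0.205 and 0.201 in floxed controls and 0.174, 0.554 and 0.515 in knockouts, so 2 of 3 knockouts were higher and the groups overlapped. At the end of intron 6 the Cd69 values were 0.102, 0.0917 and 0.0864 against 0.0752, 0.228 and 0.356. Itga6 has alternative cytoplasmic tails, and its cassette exon 29, near the 3′ end, was included at a PSI of 0.824, 0.844 and 0.781 in LT-HSC floxed controls and 0.895, 0.927 and 0.902 in LT-HSC knockouts. That Itga6 difference was 0.092 (SE 0.038, unadjusted p = 0.0336, limma adjusted p = 0.412), and MPP knockouts at 0.828, 0.932 and 0.91 overlapped with MPP floxed controls at 0.788 to 0.843. Splicing of Itga6 exon 5 to exon 6, against retention of intron 5, was 0.864, 0.924 and 0.748 in LT-HSC knockouts and 0.993 to 1 in their controls (adjusted p = 0.266). Retention at the end of Itga4 intron 13 had a PSI of 0.112, 0.206 and 0.252 in LT-HSC knockouts and 0.0738, 0.0643 and 0.0287 in their controls (unadjusted p = 0.0124, adjusted p = 0.328), and of 0 in all 3 batch 2 knockouts.

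**Figure D5:**
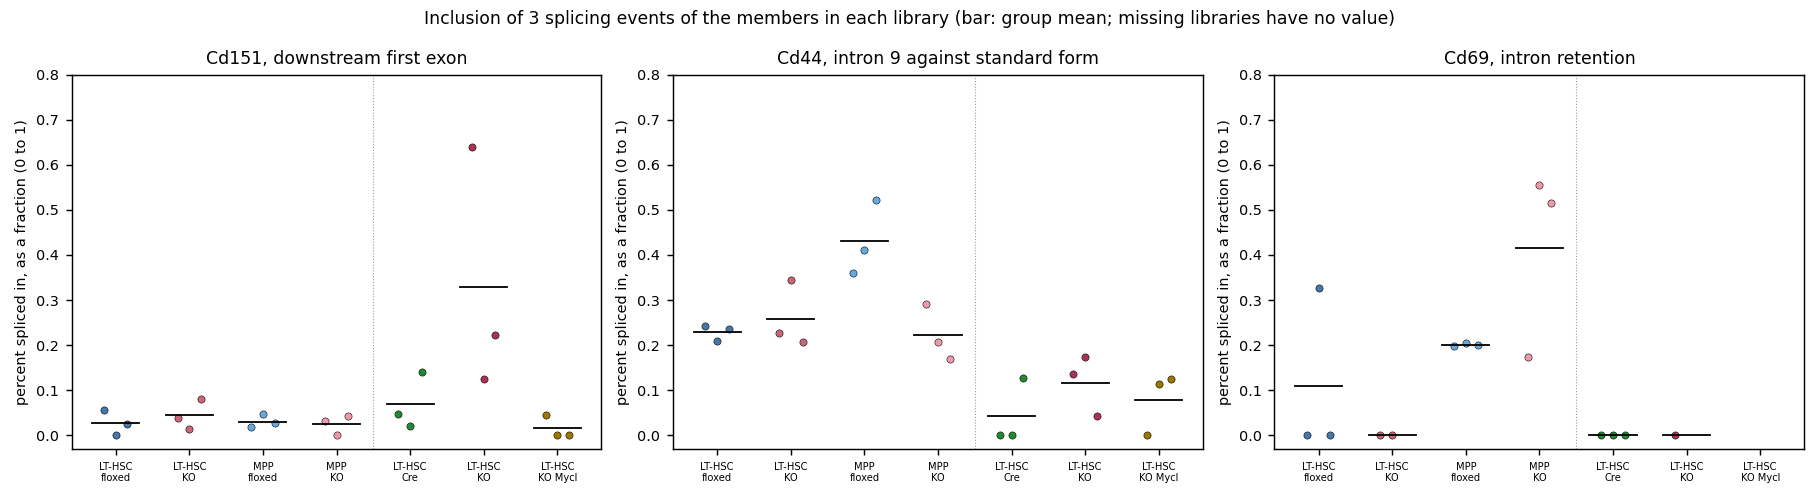
PSI (vertical axes, 0 to 1) of the Cd151 exon 3 to exon 4 junction, of Cd44 intron 9 against the junction that skips the variable exons, and of Cd69 intron 2 retention, by group; points are libraries with a value, bars group means. The batch 2 knockouts hold the highest Cd151 point (0.64), MPP floxed controls the highest Cd44 points (0.36 to 0.521), and 2 MPP knockouts the highest Cd69 points (0.554 and 0.515).

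Across all 21 libraries, on log2(rescaled TPM + 1), the genes with a mean of at least 5 TPM (9383 of them) whose pattern was most like that of Cd69 were Lin54 (Pearson r = 0.951), Tnf (0.95) and Tnfaip3 (0.945). Tnf encodes tumour necrosis factor and Tnfaip3 an inhibitor of NF-kappaB signalling. For S1pr1 they were Isca1 (0.869), Hes1 (0.858) and Ctla2b (0.852). Among the members the highest correlation was that of Cd69 with Cd44 (r = 0.859), and the lowest that of Itga6 with Cd44 (r = -0.719). These values describe libraries that share cell type, batch and depth, and each high r with Cd69 includes its gap between MPP and LT-HSC.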

How the data were processed

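Bulk RNA-seq of 21 libraries in 7 groups of 3 was analysed from the authors' tables, not from reads. Per the labels' protocols, 5 ng of RNA was amplified with the Ovation kit and libraries were made with Nextera XT. The submitters' processing notes name kallisto, STAR 2.6 and mm10, without their roles. The deposited expression table holds TPM per gene, which keeps no read depth. Totals over the listed genes were 691094 to 918942 TPM. The second table deposited by the authors holds PSI as a fraction per splicing event, without junction counts.

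Each sample was assigned by its labels. TPM were tested as log2(TPM + 1) with limma 3.58.1 (trend) in R 4.3.3, on genes with at least 1 TPM in 3 libraries of the fit, and PSI with limma on events with a value in every library of the fit. Batch 1 (12 libraries), batch 2 (9) and LT-HSC of both (12, with batch as a term) were fitted separately. Benjamini-Hochberg adjustment ran over all genes or events, with a threshold of 0.05. The rescaled fit used median-of-ratios size factors on the same table. The main fits, between cell types too, held no replicate block and were unpaired. Only in the replicate block, an alternative, were LT-HSC and MPP libraries that share an animal label taken as paired. Correlations of their deviations from the group means were 0.0496 to 0.0802 in floxed controls and 0.158 to 0.54 in knockouts. The model was checked on simulated data. The 8 members, the 6 pathway lists and the marker lists were chosen with earlier results of these data known, and the lists hold none of the members. Genes of a list were named by rule: up to 4 per list and comparison with the lowest adjusted p among those called on both scales. Alternatives were quantile scaling, a pseudocount of 0.1, a minimum of 5 TPM, no filter, removal of the identifier of highest TPM, a replicate block and leaving out each replicate. The PSI call was repeated with a difference of 0.2. Promoter sequences are RefSeq's (GRCm38.p6). Protein sequences were not used here. No value column was left unmapped.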

Additional observations from a re-analysis of the deposited data

Results flagged for a closer look

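Each member was looked at in the 6 LT-HSC controls and in the 6 LT-HSC RXR knockouts, 16 sets in all, for a library set apart by a gap that is large beside the set's whole range. The cut-off used is nominally passed by chance in about 1 of 20 sets drawn from a single normal population, and 3 such gaps were found. These sets mix both batches and, for controls, both control genotypes, so the rate here is not known. S1pr1 was at 15.01 TPM in LT-HSC knockout 1 of batch 1, with the next knockout at 9.04, a gap of 0.644 of the range. S1pr1 was at 12.54 TPM in LT-HSC floxed control 1, with the next control at 7.53, a gap of 0.654 of the range. Both libraries are of batch 1, and S1pr1 was called in no knockout comparison. Cd151 was at 23.0 TPM in LT-HSC knockout 4 of batch 2, with the next knockout at 11, a gap of 0.77 of the range. Without that library the Cd151 difference over both batches was 0.94 (limma adjusted p = 0.0608).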

How the results depend on the processing

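Counts of members past the limma test moved as follows. In the LT-HSC knockout comparison of batch 1 the count of 5 became 1 with median-of-ratios rescaling, 1 with quantile scaling, 3 without the identifier of highest TPM and 3 to 5 with a replicate left out (3 without knockout 2 or knockout 3). In MPP the count of 1 became 0 with no filter on low values and 0 with both MPP floxed controls of highest B cell marker sum left out, an alternative chosen after seeing the data, and was 0 to 1 with a replicate left out (0 without floxed control 2 or knockout 3). Between cell types, the count of 3 in floxed controls became 1 without those 2 controls and stayed at 3 with any 1 replicate left out, and the count of 5 in knockouts became 3 with no filter and 2 to 5 with a replicate left out. Over both batches the count of 1 became 0 with rescaling, quantile scaling, a pseudocount of 0.1, no filter or without the identifier of highest TPM, and was 0 to 1 with a replicate left out. The change of the effect between batches went from 0 to 3 with a minimum of 5 TPM and was 0 to 3 with a replicate left out. Against Cre controls the group with the additional floxed allele gave 0 to 2 with a replicate left out (2 without its replicate 1). The counts of 0 for knockouts against Cre controls, for the additional allele against knockouts and for the difference between cell types were 0 under each alternative run, as were the 8 counts of splicing events.

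Among the members called in LT-HSC knockouts of batch 1, Selplg turned to -0.034 with median-of-ratios rescaling, and Itgb1 to -0.18 with it and -0.049 with quantile scaling. The ratio of Itga6 to Itga4 ranged, with a replicate left out, from -0.20 to 0.12 for the additional allele against knockouts (0.08, 0.02, 0.01 and 0.12 were the values that changed sign) and from -0.061 to 0.26 against Cre controls. That of Cd69 to S1pr1 ranged from -0.56 to 0.40 for the additional allele against knockouts. The other 11 ratio differences kept their sign. Where the text gives no cause for such a move, the cause was not tested.

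Pairing by animal label (replicate block) gave 4 members between cell types in floxed controls, 6 in knockouts and 0 for the difference between cell types. S1pr1 in floxed controls and Cd44 in knockouts were the calls gained. With the bare replicate number as a block, where correlations of -0.142 to 0.28 do not pair the samples, the counts were 5 in LT-HSC and 1 in MPP of batch 1 and 0 in batch 2. Depth per gene and per junction is unknown, so counting error is not given for low genes such as Cd151, nor for any PSI.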
